A study of Mus musculus with 46 samples.

Results

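Leukocyte adhesion and homing was followed through 9 genes across all 46 samples of a bulk RNA-seq study of PD-1 inhibition in MC-38 tumors. They were picked by name, as leukocyte integrins, a selectin ligand and endothelial counter-receptors, and all 9 were found among the 48795 genes of the expression table. The β2 integrin pair was Itgal and Itgb2, and its ligand was Icam1. The α4, αE and β7 chains were Itga4, Itgae and Itgb7, and the α4 ligand was Vcam1. Itga1 coded for a collagen-binding integrin chain, and Selplg for the P-selectin ligand PSGL-1. MC-38 is a mouse colon carcinoma line, and RNA came from 3 cultures of it and from 43 tumors grown under the skin of the flank. Expression was given as FPKM, a read count scaled to both library size and transcript length, which permits levels to be compared between genes.

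The tumors belonged to 7 groups, all in female mice of 8 to 10 weeks on a C57BL/6 background. Baseline tumors (n = 3) came from WT mice before any dose. WT mice then received isotype control antibody, or the anti-mouse PD-1 antibody muDX400 (PD-1 Ab) at 5 mg/kg, and tumors were taken at label day 4 after 1 dose (n = 5 per group) or at label day 8 after 2 doses (n = 5 per group). In the genetic model, mice carrying floxed Pdcd1 alleles and a tamoxifen-inducible Cre expressed from the ROSA26 locus in all tissues (labelled PD-1cKO, n = 10) were compared with their WT littermates (n = 10). Both of these groups received tamoxifen at 40 mg/kg on 5 consecutive days. Their label gives day 28, while the methods of the study give an earlier day.

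Leukocytes leave the blood in steps. PSGL-1 lets them tether and roll on selectins, and β2 and α4 integrins then hold them firmly on ICAM-1 and VCAM-1 of the vessel wall. The αL chain pairs with β2 to form LFA-1, which also binds T cells to the cells that present antigen to them. The α4 chain pairs with β1 or β7, and αE pairs with β7 to form the receptor for E-cadherin that marks many tissue-resident T cells and some dendritic cells. The α1 chain pairs with β1 and is found on stromal cells and on some resident T cells.

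Libraries varied in ways that touched these values. The FPKM of replicate 1 of the isotype control group after 1 dose was 54.6% mitochondrial, against at most 7.65% in any other tumor. Short noncoding RNAs took 30.2% to 66.5% of the FPKM in the 20 tumors of the genetic model and at most 0.0817% in all others. Pdcd1 itself, the gene targeted in the genetic model, ranged from 5.05 to 19.9 FPKM in the tumors labelled PD-1cKO and from 1.71 to 7.02 FPKM in WT tumors. Its whole-gene level was thus higher under the deletion label (limma log2 fold change 1.49 ± 0.24 SE, adjusted p = 0.000658). Only some exons are floxed, and a value over the whole gene cannot show whether that part was removed. By flow cytometry, the paper reported that PD-1 protein was nearly gone from T cells of such tumors after tamoxifen. These libraries are called by their label throughout. The 4 epithelial markers examined (Epcam, Krt8, Krt18 and Krt19) summed to 0.608 to 0.708 FPKM in the MC-38 cultures, close to absent for a carcinoma line. In bulk tissue, fewer cells of a type and less RNA per cell cannot be told apart.

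In the GRCm38 mouse genome, with GENCODE M21 gene models, Itgal lies on chromosome 7 (127296260 to 127335138, plus strand) and Itgb2 on chromosome 10 (77530252 to 77565708, plus strand). Itga4 is on chromosome 2 (79255426 to 79333123, plus strand), Itgae on chromosome 11 (73090583 to 73147446, plus strand) and Itgb7 on chromosome 15 (102215995 to 102231944, minus strand). Itga1 is on chromosome 13 (114953096 to 115101964, minus strand), Selplg on chromosome 5 (113818536 to 113832644, minus strand), Icam1 on chromosome 9 (21015985 to 21028817, plus strand) and Vcam1 on chromosome 3 (116109949 to 116129688, minus strand). All 9 code for protein. In these models Itga1 shares exon bases with 1 other gene on its own strand (Gm49395), and the FPKM of Itga1 is uncertain to that extent. Itga4, Icam1 and Vcam1 each share exon bases with 1 gene on the opposite strand.

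RefSeq promoter windows (build GRCm38.p6) were at hand for 4 of the 9 genes. The 250 bases before the start site are shown for Icam1, Itgb7 and Itga4, which rose after 2 doses of PD-1 Ab, and for Itga1, which was not called. Capitals mark matches on either strand to 4 short motifs. They are the interferon-γ activated site TTCNNNGAA, an NF-κB pattern GGNNNTTCC, the PU.1 core GAGGAAGT and the RUNX core TGTGGT. 
Icam1 promoter, chr9:21015690-21015939, plus strand: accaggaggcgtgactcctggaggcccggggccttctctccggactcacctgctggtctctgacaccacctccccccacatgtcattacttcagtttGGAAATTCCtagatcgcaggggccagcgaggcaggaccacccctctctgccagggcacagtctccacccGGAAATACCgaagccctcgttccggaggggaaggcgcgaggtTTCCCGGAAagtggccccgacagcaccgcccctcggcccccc
Itgb7 promoter, chr15:102231936-102232185, minus strand: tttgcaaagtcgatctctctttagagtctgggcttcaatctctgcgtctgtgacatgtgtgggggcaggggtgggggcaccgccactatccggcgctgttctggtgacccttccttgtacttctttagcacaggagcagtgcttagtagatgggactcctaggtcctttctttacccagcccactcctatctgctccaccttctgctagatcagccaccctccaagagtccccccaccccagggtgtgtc
Itga4 promoter, chr2:79255176-79255425, plus strand: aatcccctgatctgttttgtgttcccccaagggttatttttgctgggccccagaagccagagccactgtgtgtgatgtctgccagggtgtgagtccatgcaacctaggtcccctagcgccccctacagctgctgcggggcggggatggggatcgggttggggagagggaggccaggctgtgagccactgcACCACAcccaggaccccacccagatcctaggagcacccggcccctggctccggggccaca
Itga1 promoter, chr13:115101965-115102214, minus strand: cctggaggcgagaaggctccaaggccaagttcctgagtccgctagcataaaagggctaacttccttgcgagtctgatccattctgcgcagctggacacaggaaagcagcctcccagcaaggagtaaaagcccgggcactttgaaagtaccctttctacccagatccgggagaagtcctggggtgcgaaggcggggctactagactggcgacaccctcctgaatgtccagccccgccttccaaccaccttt

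The Icam1 window held the interferon-γ activated site at positions -42 to -34 from the start site and the NF-κB pattern at -153 to -145 and -84 to -76. Among 32851 RefSeq windows of the same 250 bases, 7.02% held the first motif and 15.7% the second. The Itga4 window held 1 RUNX core, on its minus strand at -60 to -55, a motif present in 14.0% of windows. No match to the 4 motifs was found in the windows of Itgb7 and Itga1, and the PU.1 core (2.44% of windows) was in none of the 4.

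The 9 genes differed most in where the cultured cells stood (the plot of values in every sample). The genes carried mainly by leukocytes, and Icam1, were low in all 3 cultures. Itgal lay between 0.0128 and 0.0205 FPKM, Itga4 between 0.0185 and 0.0433, Selplg between 0 and 0.0233, and Icam1 between 0.0591 and 0.0854. Itgb7 (0.108 to 0.224 FPKM), Itgae (0.176 to 0.198 FPKM) and Itgb2 (0.514 to 0.538 FPKM) were somewhat higher. Itga1 was at 1.55 to 1.78 FPKM, and Vcam1 at 69.3 to 73.1 FPKM, not far below the tumors.

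**Figure D1:**
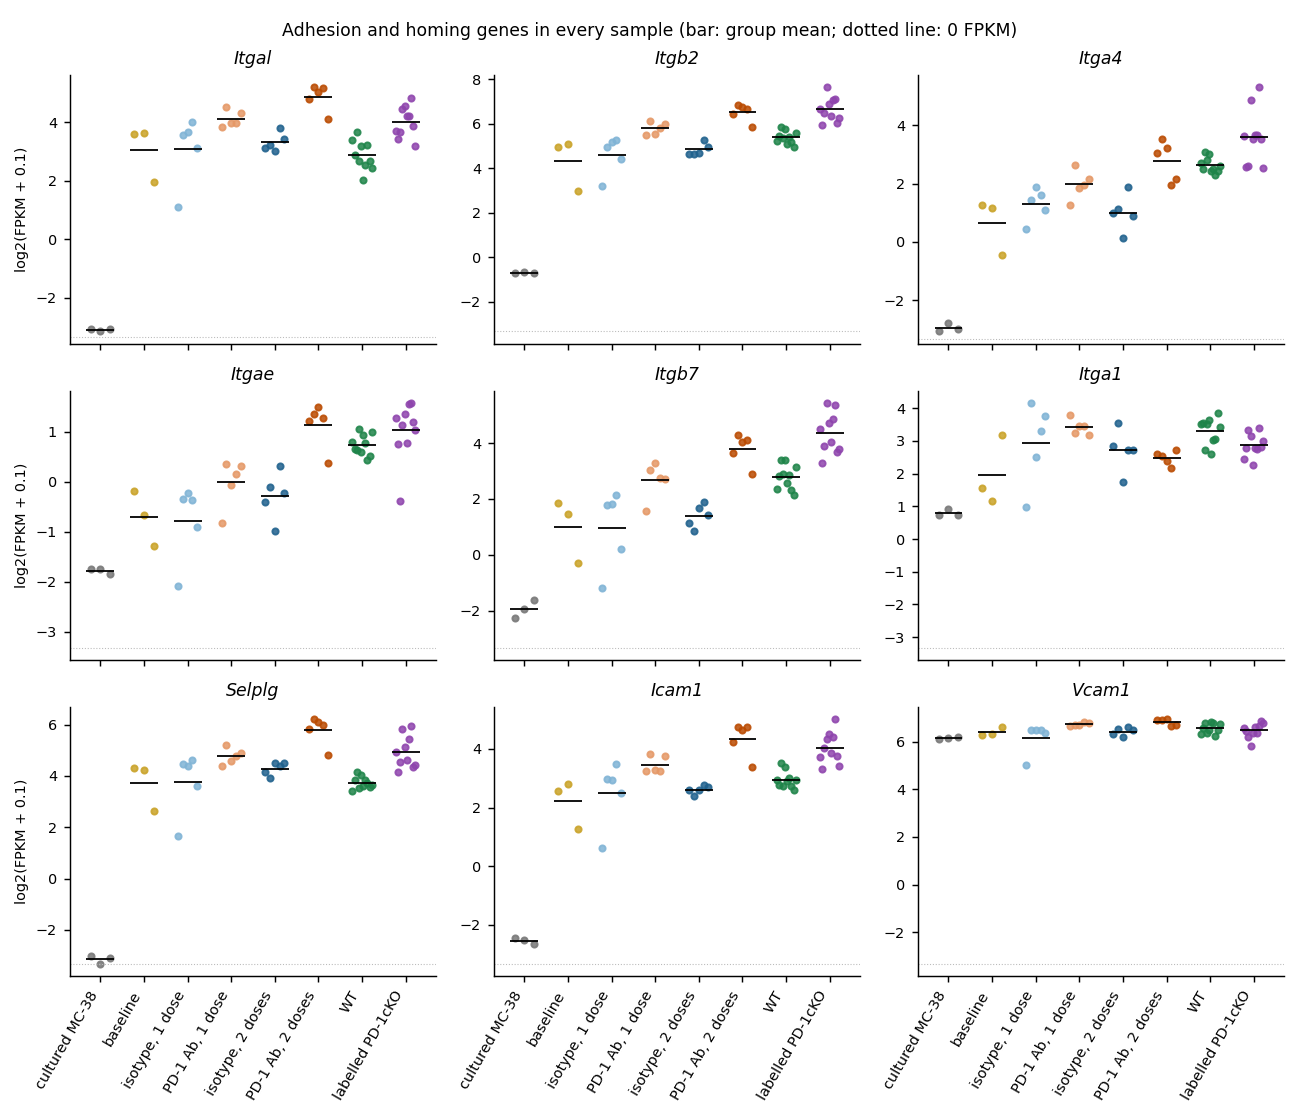
Each point is 1 sample, on a log2(FPKM + 0.1) axis, in the 8 groups along the horizontal axis. Black bars are group means of these log2 values, and the dotted line marks 0 FPKM. Vcam1 is already high in the cultures (mean 70.8 FPKM) and higher in PD-1 Ab tumors after 2 doses (mean 113 FPKM). Selplg is near 0 in the cultures and reaches 74.1 FPKM in a PD-1 Ab tumor.

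Isotype control tumors after 2 doses were compared with the cultures to see which genes were higher in tumors than in the line itself. Expression in host cells and induction in MC-38 cells within the tumor cannot be told apart here. Of the 9 genes, 8 passed the limits used throughout (limma, adjusted p under 0.01 and at least 2-fold) and were higher in tumors, where 14.2% of all 15199 tested genes were called higher and 7.09% lower. The log2 differences were 7.43 ± 0.17 (SE) for Selplg, 6.41 ± 0.20 for Itgal, 5.53 ± 0.16 for Itgb2 and 5.14 ± 0.16 for Icam1. They were smaller for Itga4 (3.95 ± 0.35), Itgb7 (3.35 ± 0.28), Itga1 (1.93 ± 0.32) and Itgae (1.502 ± 0.30). For Vcam1 the difference was 0.28 ± 0.11, with an adjusted p of 0.04999. All these differences are on the log2(FPKM + 0.1) scale, which understates the change of genes near 0.

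Across the groups of tumors, with all tumors counted, the highest mean of each of the 9 genes was in a PD-1 Ab group or in the tumors labelled PD-1cKO. Itgal, Itgae, Selplg, Icam1 and Vcam1 had their highest mean in PD-1 Ab tumors after 2 doses (30.1, 2.19, 58.3, 21.5 and 113 FPKM). Itgb2, Itga4 and Itgb7 had it in the tumors labelled PD-1cKO (108, 14.7 and 22.9 FPKM). Itga1 had its highest mean in PD-1 Ab tumors after 1 dose (10.8 FPKM) and the next in WT tumors of the genetic model (10.1 FPKM). The first place of Itga1 rests on the isotype control tumor after 1 dose with the high mitochondrial share, at 1.87 FPKM. The others of that group had 17.8, 5.58, 9.70 and 13.6 FPKM, and the group mean with all tumors was 9.71 FPKM. Neighbours in this order overlapped for every gene among the tumor groups, other than the step in Itgae from WT tumors of the genetic model (lowest 1.26 FPKM) to PD-1 Ab tumors after 1 dose (highest 1.17 FPKM). Levels set across the antibody and genetic studies carry the unequal share of short noncoding RNA given above.

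Baseline tumors and isotype control tumors after 2 doses were compared to see how the genes differed between early undosed and later control tumors. Growth, isotype dosing and collection cannot be told apart in this comparison. In limma 0 of the 9 genes passed the limits, and 0.428% of 14967 genes were called higher and 0.167% lower. At an unadjusted p under 0.05 there were also 0 of the 9, against 10.8% of all genes higher and 6.9% lower. One baseline tumor stood low, with Itgb2 at 7.88 FPKM and Selplg at 6.11 FPKM. The other baseline tumors had 31.2 and 33.8 FPKM of Itgb2 and 18.6 and 19.5 FPKM of Selplg.

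After 2 doses of PD-1 Ab, 7 of the 9 genes were higher than under isotype control, where 5.03% of 15062 tested genes were called higher and 0.272% lower. They were both β2 integrin chains, Itga4, Itgae, Itgb7, Selplg and Icam1. Vcam1 and Itga1 did not pass. With Vcam1 included, 8 genes had no overlap between the 5 PD-1 Ab and the 5 isotype control tumors, as did 9.23% of all tested genes in that direction and 6.12% in the other. The median log2 fold change was 1.55 over the 9 genes and -0.04 over all tested genes.

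For the αL chain Itgal, the isotype control tumors had 8.68, 9.26, 7.96, 13.9 and 10.5 FPKM and the PD-1 Ab tumors 27.8, 36.9, 32.4, 36.3 and 17.1 FPKM. Every PD-1 Ab tumor was above every control, replicate 5 the least. The log2 fold change was 1.55 ± 0.22 (SE, adjusted p = 0.00117). Its partner Itgb2, the β2 chain shared by LFA-1 and other leukocyte integrins, had 24.8, 25.1, 26.0, 39.0 and 31.3 FPKM in controls and 88.3, 114, 108, 103 and 57.7 FPKM in PD-1 Ab tumors. The groups were again apart, with a log2 fold change of 1.67 ± 0.19 (adjusted p = 0.000837).

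Icam1, the ligand that LFA-1 binds, was even among controls at 5.96, 5.13, 5.90, 6.72 and 6.34 FPKM. PD-1 Ab tumors had 18.6, 26.7, 25.0, 26.8 and 10.3 FPKM. Ligand and receptor thus rose in the same tumors, and replicate 5 was again the lowest of the treated group. The log2 fold change was 1.74 ± 0.23 (adjusted p = 0.00106).

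Itgb7, the β chain shared by α4β7 and αEβ7, changed the most of the 9. Controls had 2.13, 1.70, 3.09, 3.62 and 2.58 FPKM, and PD-1 Ab tumors 12.2, 19.5, 16.5, 17.0 and 7.33 FPKM. The lowest treated tumor was above the highest control by a wide margin, and the log2 fold change was 2.39 ± 0.27 (adjusted p = 0.000837).

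The α chains that pair with β7 were less abundant. Itga4 had 1.88, 2.07, 1.00, 3.56 and 1.75 FPKM in controls and 8.21, 11.6, 9.23, 3.78 and 4.37 FPKM in PD-1 Ab tumors, so that replicate 4 of the treated group lay just above the highest control. Its log2 fold change was 1.79 ± 0.36 (adjusted p = 0.00604). Itgae had 0.653, 0.825, 0.406, 1.14 and 0.751 FPKM in controls against 2.24, 2.45, 2.71, 2.33 and 1.204 FPKM. The groups of Itgae did not overlap but came close in replicate 5 of the treated group (log2 fold change 1.43 ± 0.29, adjusted p = 0.00592). The calls of Itga4 and Itgae were the less secure ones, since each rested on an adjusted p near the limit and was lost in 7 and 8 of the 10 fits that left out 1 tumor, with fold changes that stayed between 1.57 and 2.01 for Itga4 and between 1.26 and 1.62 for Itgae.

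Vcam1, the main α4β1 ligand, had 79.2, 92.0, 72.5, 99.1 and 88.7 FPKM under isotype control and 121, 120, 123, 99.6 and 102 FPKM under PD-1 Ab. The ranges touched without overlapping. The log2 fold change was 0.39 ± 0.11 (adjusted p = 0.0222), under the 2-fold limit.

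Itga1 went the other way without a call. Controls had 7.03, 11.5, 3.29, 6.55 and 6.58 FPKM, and PD-1 Ab tumors had 5.92, 5.71, 5.13, 4.37 and 6.45 FPKM. The treated values lay within the range of the controls and all below their median. The log2 fold change was -0.24 ± 0.26 (adjusted p = 0.518).

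Selplg, the PSGL-1 gene, was the most abundant of the 9 after Itgb2 and Vcam1. It had 17.6, 15.0, 22.3, 20.6 and 22.5 FPKM in controls and 57.5, 74.1, 68.6, 62.9 and 28.2 FPKM in PD-1 Ab tumors. The groups were apart, with a log2 fold change of 1.51 ± 0.23 (adjusted p = 0.00181). Replicate 5 of the PD-1 Ab group was the lowest treated tumor for 6 of the 7 called genes, and without it all 7 were still called.

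**Figure D2:**
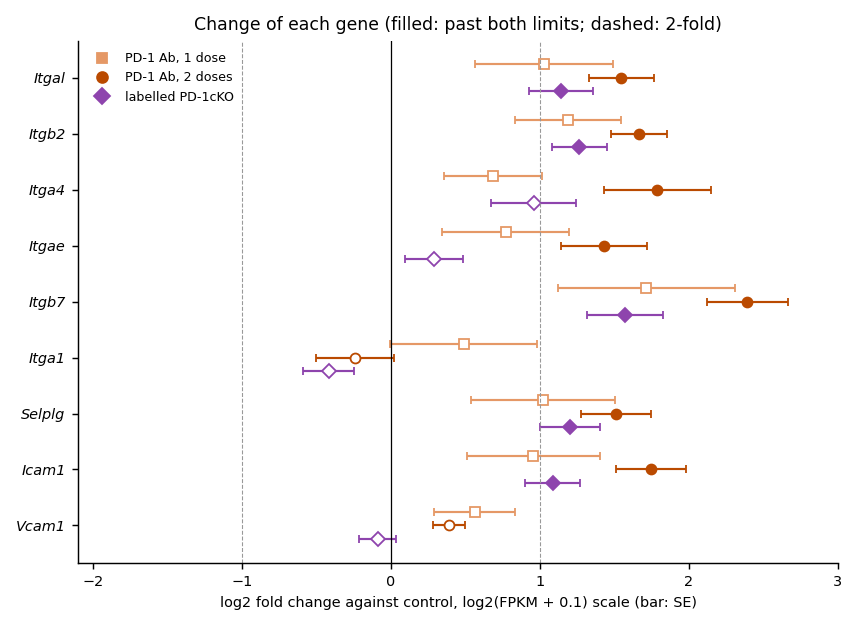
Points give the log2 fold change of each gene against its control and bars the standard error, with squares for 1 dose, circles for 2 doses and diamonds for the groups of the genetic model. Filled symbols passed both limits, adjusted p under 0.01 and 2-fold (dashed lines): 0 genes after 1 dose, 7 after 2 doses and 5 in the genetic model.

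One dose of PD-1 Ab gave no call. In limma 0 of the 9 genes, and 0% of 14556 tested genes, passed both limits. At an unadjusted p under 0.05, Itgal, Itgb2 and Itgb7 were higher, and 5.83% of all genes were. Itgb2 had 9.26, 30.9, 36.4, 38.3 and 21.3 FPKM in controls and 45.3, 69.8, 46.2, 55.9 and 64.6 FPKM in PD-1 Ab tumors. Its groups did not overlap (log2 fold change 1.19 ± 0.35, adjusted p = 0.435), nor did those of Vcam1, and 3.59% of all tested genes were higher and 0.0618% lower without overlap.

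Itgb7 had the largest fold change after 1 dose, at 1.72 ± 0.60 (adjusted p = 0.587). Controls had 0.342, 3.35, 3.40, 4.26 and 1.06 FPKM, and PD-1 Ab tumors 2.84, 8.19, 9.66, 6.54 and 6.40 FPKM, with 4 of 5 treated tumors above every control. The low first value of the controls belongs to the tumor with the high mitochondrial share. All genes together were shifted by 0.26 in the median log2 fold change of this comparison. Without that tumor, the log2 fold change was 1.18 ± 0.42 for Itgb7, 0.84 ± 0.18 for Itgb2 and -0.0044 ± 0.28 for Itga1, which had been 0.49 ± 0.50, and the count of calls was still 0. The sample identifiers of 3 of the 5 controls, this tumor among them, belong to an earlier run of numbers than the rest. Within the later run, 2 controls against 5 PD-1 Ab tumors, the log2 differences were 0.95 for Itgb2 and 1.498 for Itgb7.

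The change after 2 doses was set against that after 1 dose in a single fit. No gene of the 9, and 0% of 15289 tested genes, passed both limits for this difference. Itga4 had the lowest p of the 9, with a difference of 1.104 ± 0.51 (unadjusted p = 0.0407, adjusted p = 0.623), and it was the 1 gene of the 9 under an unadjusted p of 0.05, against 2.03% of all genes in that direction. When limma weighted tumors by their scatter, 5 of the 9 genes passed as higher after 2 doses (Itgal, Itgb2, Itga4, Selplg and Icam1). The shares above are from the unweighted fit. That of all genes in the weighted fit is not given here, so this count cannot be set against it.

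In the genetic model, 5 of the 9 genes were higher in the tumors labelled PD-1cKO than in WT tumors: Itgal, Itgb2, Itgb7, Selplg and Icam1. Over 15075 tested genes, 4.2% were called higher and 3.87% lower. The median log2 fold change of the 9 genes was 1.08, and that of all tested genes was -0.20. The short noncoding share had medians of 54.0% in the tumors labelled PD-1cKO and 45.3% in WT tumors, and its part in that shift was not tested. After median-of-ratios scaling, which moved the median of all genes to 0.09, 6 of the 9 genes passed, Itga4 being added.

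Itgb2 had a lowest, median and highest value of 31.3, 42.0 and 57.7 FPKM in WT tumors and of 62.0, 97.1 and 203 FPKM in the tumors labelled PD-1cKO. All 10 of the latter were above every WT tumor (log2 fold change 1.26 ± 0.19, adjusted p = 0.000477). Selplg was at 10.5, 12.9 and 17.6 FPKM against 17.6, 27.6 and 60.8 FPKM. Its groups met at 17.6 FPKM without crossing (1.201 ± 0.20, adjusted p = 0.000726). These were the only genes of the 9 whose groups did not overlap, and 0.643% of all tested genes were higher and 0.305% lower without overlap.

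Itgb7 was at 4.34, 6.97 and 10.4 FPKM in WT tumors and at 9.62, 19.4 and 43.1 FPKM in those labelled PD-1cKO, and 9 of 10 lay above every WT tumor. Its log2 fold change of 1.57 ± 0.25 (adjusted p = 0.000667) was the largest of the 9 in this model too. Itgal was at 3.96, 6.78 and 12.5 FPKM against 9.08, 16.4 and 28.6 FPKM, with 8 of 10 tumors above every WT tumor (1.14 ± 0.22, adjusted p = 0.00117). Icam1 was at 5.90, 7.46 and 11.5 FPKM against 9.78, 15.2 and 32.2 FPKM, also with 8 of 10 above (1.08 ± 0.19, adjusted p = 0.000728). With tumors weighted by their scatter, Selplg (0.98 ± 0.15, adjusted p = 0.000259) and Icam1 (0.85 ± 0.15, adjusted p = 0.000517) fell just under the 2-fold limit and were not called.

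The other 4 genes were not called. Itga4 was at 4.85, 5.80 and 8.37 FPKM in WT tumors and at 5.68, 11.8 and 40.1 FPKM in those labelled PD-1cKO, and 7 of 10 exceeded every WT tumor (0.96 ± 0.28, adjusted p = 0.0118). Itgae was at 1.26, 1.54 and 1.99 FPKM against 0.668, 2.15 and 2.89 FPKM. Of the 10, 6 were above every WT tumor and 1 was below all of them (0.29 ± 0.20, adjusted p = 0.227). Vcam1 was at 74.5, 92.3 and 115 FPKM against 56.6, 91.0 and 117 FPKM, widely overlapping, with a log2 fold change of -0.09 ± 0.13 (adjusted p = 0.564) whose sign turned under each of 3 other scalings. Itga1 was at 6.03, 11.0 and 14.3 FPKM against 4.73, 6.84 and 10.5 FPKM, all 10 of the latter below the WT median (-0.42 ± 0.17, adjusted p = 0.0498).

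The sample identifiers in the genetic model fall into 3 runs of numbers, which were not spread evenly over the groups. Of the labelled PD-1cKO tumors, 7 were in the early run, 1 in the middle and 2 in the late run, while 9 of the WT tumors were in the middle run and 1 in the late. With the run as a covariate, 0 of the 9 genes were called. The log2 fold changes were 1.57 for Itgal, 1.25 for Itgb2, 1.76 for Itgb7, 1.56 for Selplg and 1.46 for Icam1, each at an adjusted p of 0.0257. Their unadjusted p-values in this limma fit ran from 0.000175 (Icam1) to 0.00122 (Itgb2). The share of all tested genes called with this covariate is not given here. The count of 0 is therefore not a result about the 9 genes in particular. Within the middle run, the log2 difference was 1.93 for Itgal, 1.74 for Itgb2, 2.62 for Itgb7, 2.18 for Selplg and 2.06 for Icam1. These rest on 1 labelled PD-1cKO tumor, replicate 8, the highest of its group in Itgal, Selplg and Icam1. In the late run it was 1.08, 0.58, 0.60, 0.72 and 0.65 for these genes in the same order. What a run of numbers stands for is not stated.

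The antibody and genetic models were compared in a fit of their 4 groups. By the paper's schedule, label day 8 counts from the first dose and label day 28 from tumor implant. Tumor age, mouse line, tamoxifen and the short noncoding share thus differed between the models. They cannot be told apart from the mode of PD-1 inhibition in this comparison. The difference was taken as the PD-1 Ab change after 2 doses minus the change in the tumors labelled PD-1cKO. In limma 0 of the 9 genes passed both limits, and 0.0792% of 16404 genes did as larger under antibody and 0.0122% as smaller. Itgae had the largest difference, 1.14 ± 0.34 (unadjusted p = 0.00226, adjusted p = 0.114). Itga4 (0.83 ± 0.50) and Itgb7 (0.82 ± 0.42) came next in size, at adjusted p-values of 0.389 and 0.334. Icam1 differed by 0.66 ± 0.32 (adjusted p = 0.315) and Vcam1 by 0.48 ± 0.19 (adjusted p = 0.234). Itgae, Icam1 and Vcam1 were under an unadjusted p of 0.05, as were 12.8% of all genes in that direction, and the median difference over all genes was 0.23. With tumors weighted by their scatter, Itgae, Itga4, Itgb7 and Icam1 passed as larger under antibody. The shares above are from the unweighted fit. That of all genes in the weighted fit is not given here, so these calls cannot be set against it.

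**Figure D3:**
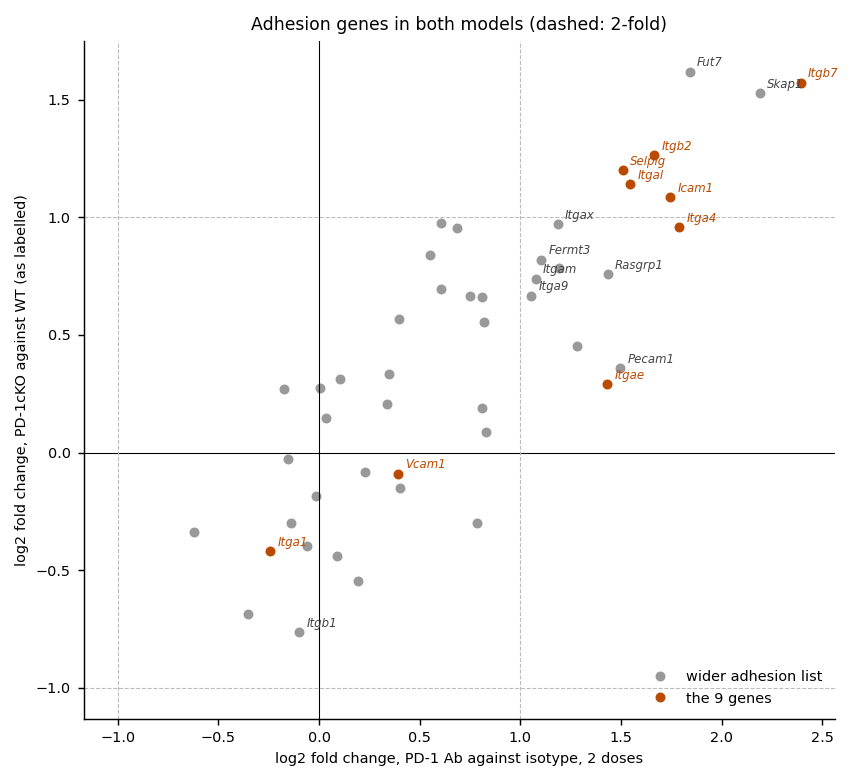
Each point is a gene, with its log2 fold change after 2 doses of PD-1 Ab on the horizontal axis and that in the genetic model on the vertical axis (orange, the 9 genes; gray, the wider adhesion list; dashed lines, 2-fold). Itgal, Itgb2, Itgb7, Selplg, Icam1, Fut7 and Skap1 lie past 2-fold on both axes. Itgae lies at 1.43 and 0.29, and Itga1 and Itgb1 below 0 on both.

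A wider list of 44 adhesion genes held other integrin chains, selectins, further ligands, enzymes that make selectin ligands, and proteins that activate integrins. After 2 doses, 38 of them were tested, 8 were called higher and 0 lower, with a median log2 fold change of 0.58, beside 5.03% called higher and a median of -0.04 over all genes. Of the 39 tested in the genetic model, 2 were called higher and 0 lower, with a median of 0.33, beside 4.2% called higher and a median of -0.20 over all genes. After 1 dose 0 of 38 were called. Madcam1, the gut ligand of α4β7, and the E-selectin gene Sele were under the limit of 0.5 FPKM in both models.

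The highest called genes of the list after 2 doses were Skap1 (log2 fold change 2.19 ± 0.33), an adaptor that carries T-cell receptor signals to LFA-1, and Fut7 (1.84 ± 0.27), the fucosyltransferase needed to decorate PSGL-1 for selectin binding. They were followed by the junction molecule Pecam1 (1.496 ± 0.24), the Rap1 activator Rasgrp1 (1.44 ± 0.28) and Itgax (1.19 ± 0.13), the αX chain of macrophages and dendritic cells. Their adjusted p-values ranged from 0.000837 to 0.00572. Skap1 and Fut7 were also the called genes of the list in the genetic model, at 1.53 ± 0.31 (adjusted p = 0.00158) and 1.62 ± 0.27 (adjusted p = 0.000712). Fut7 was low throughout, with means of 0.403 FPKM in isotype control and 1.70 FPKM in PD-1 Ab tumors after 2 doses.

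Itgb1, the β1 partner of α1 and α4, had a mean of 204 FPKM in the cultures and of 305 and 284 FPKM in isotype control and PD-1 Ab tumors after 2 doses. Its log2 fold change there was -0.10 ± 0.12 (adjusted p = 0.555). In the tumors labelled PD-1cKO it ranged from 74.98 to 226.7 FPKM against 196 to 262 FPKM in WT tumors. It fell by 0.76 on the log2 scale (SE 0.19, adjusted p = 0.00464), less than the 2-fold limit.

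Chains of one heterodimer were compared within each tumor, as the ratio of their FPKM. The median ratio of Itgal to Itgb2 was 0.351 in isotype control and 0.315 in PD-1 Ab tumors after 2 doses. It was 0.165 in WT tumors and 0.154 in those labelled PD-1cKO. Both chains therefore moved by about the same factor within a model. Itgae to Itgb7 had medians of 0.307 and 0.164 after 2 doses, and of 0.243 and 0.0974 in WT tumors and tumors labelled PD-1cKO. Itga4 to Itgb7 had medians of 0.883 and 0.595, and of 0.851 and 0.579. In both models the β7 chain was thus higher against its α partners in the treated or labelled group, though the ranges of both ratios overlapped.

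Because most of these genes are carried mainly by leukocytes, each value was also taken relative to Ptprc, the pan-leukocyte gene CD45, in the same tumor. In the within-group correlations described below, Ptprc followed Itga4 closely (r = 0.93). It followed Itgal, Itgb2, Itgae, Itgb7, Selplg and Icam1 less closely (0.56 to 0.66), and Vcam1 (0.33) and Itga1 (0.03) least. The ratios therefore show unequal change only, and do not set leukocyte content aside for every gene. Ptprc was at 10.5 to 25.9 FPKM in isotype control and at 20.9 to 74.2 FPKM in PD-1 Ab tumors after 2 doses (log2 fold change 1.42 ± 0.34, adjusted p = 0.0133). Relative to it, the change after 2 doses was 0.13 ± 0.40 (SE) for Itgal, 0.25 ± 0.38 for Itgb2, 0.09 ± 0.44 for Selplg, 0.33 ± 0.45 for Icam1 and 0.01 ± 0.335 for Itgae. None of these exceeded its standard error. For Itga4 it was 0.37 ± 0.13 (adjusted p = 0.0341), but the adjusted p was 0.413 with moderated variances, and with a pseudocount of 1 FPKM the value was 0.047 (adjusted p = 0.912, moderated). For Itgb7 the change was 0.98 ± 0.48 (adjusted p = 0.0912). Itga1 and Vcam1 were lower relative to Ptprc, by -1.66 ± 0.36 (adjusted p = 0.0162) and -1.03 ± 0.32 (adjusted p = 0.0211). The median change relative to Ptprc over all tested genes was -1.46. Itga1 thus lay near the typical gene, and Vcam1 fell less than it.

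In the genetic model Ptprc overlapped widely, at 23.1 to 48.5 FPKM in WT tumors and 21.04 to 89.9 FPKM in those labelled PD-1cKO (0.43 ± 0.23, adjusted p = 0.132). Relative to it, Itgb7 was 1.14 ± 0.22 higher (adjusted p = 0.00677). Itgb2 (0.83 ± 0.21), Selplg (0.77 ± 0.20), Itgal (0.71 ± 0.22), Icam1 (0.66 ± 0.20) and Itga4 (0.53 ± 0.155) were higher at adjusted p-values from 0.0117 to 0.0206 and under 2-fold. Itgae was at -0.14 ± 0.26 and Itga1 at -0.85 ± 0.28. The median change relative to Ptprc over all tested genes was -0.63 in this model. With moderated variances the adjusted p of Itgb7 was 0.00493, and it alone of the 9 was called. Of all tested genes, 1.45% were called higher and 10.2% lower in that form. Its call there was lost in 7 of the 20 fits that left out 1 tumor.

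**Figure D4:**
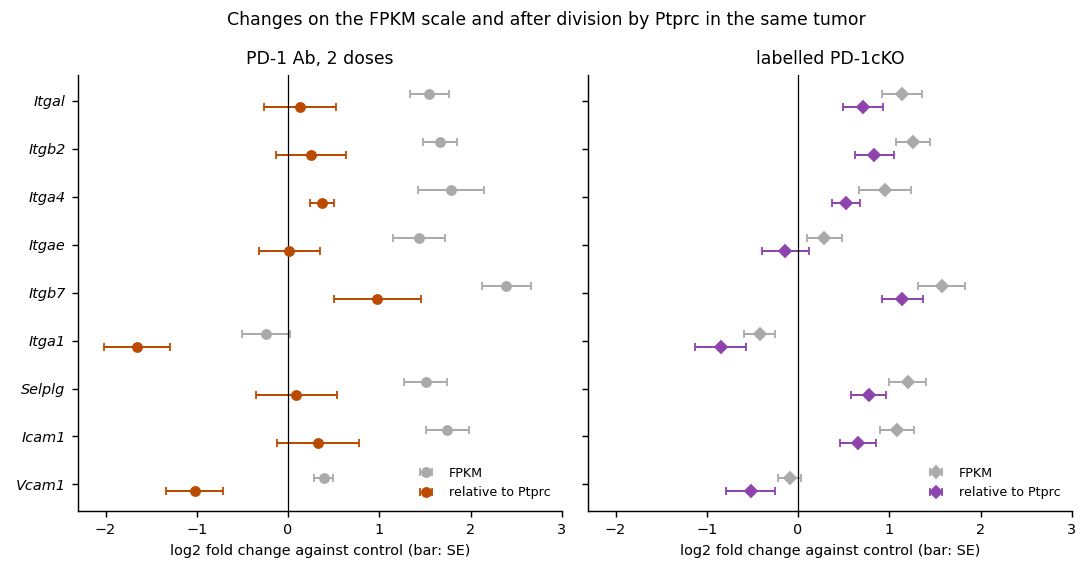
Gray symbols give the log2 fold change of FPKM for each gene and colored symbols the change after division by Ptprc in the same tumor, with bars for standard errors, after 2 doses of PD-1 Ab (left) and in the genetic model (right). After 2 doses Itgal moves from 1.55 to 0.13 and in the genetic model Itgb7 from 1.57 to 1.14.

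The errors and adjusted p-values in this comparison use the variance of each gene alone. They were chosen after the data were seen, since all genes share the scatter of Ptprc when divided by it. With variances moderated across genes, 0 of the 9 were called after 1 dose (0.00687% of all genes higher), 1 gene of the 9 (Itga1, lower) was called after 2 doses, where 67.7% of all genes were called lower and 0.518% higher, and 1 in the genetic model (Itgb7, higher), where 1.45% of all genes were called higher and 10.2% lower. Relative to the T-cell gene Cd3e with moderated variances, 1 of the 9 was called after 1 dose, 2 after 2 doses and 3 in the genetic model, each of them lower. The shares of all genes called lower were 75%, 88.8% and 92.1%, with 0.0266% called higher after 2 doses.

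Marker levels of several cell types moved in the same tumors. After 2 doses, 6 T-cell markers summed to 10.0 to 20.1 FPKM in controls and 37.6 to 148 FPKM in PD-1 Ab tumors, and 4 macrophage markers to 113 to 146 FPKM and 192 to 454 FPKM. The 6 endothelial markers summed to 12.9 to 17.2 FPKM and 12.9 to 63.2 FPKM, and 2 adipose markers to 1.06 to 9.54 FPKM and 3.67 to 78.7 FPKM. From WT tumors to tumors labelled PD-1cKO, the sums went from 9.32 to 35.9 FPKM to 24.3 to 84.0 FPKM for T cells, from 142 to 301 FPKM to 210 to 667 FPKM for macrophages, and from 15.7 to 29.8 FPKM to 20.95 to 73.5 FPKM for endothelium. No marker of these lists was at 0 in all tumors of any of these groups. The 4 fibroblast markers summed to 398 to 774 FPKM in controls and 579 to 1210 FPKM in PD-1 Ab tumors after 2 doses, and to 350.1 to 793 FPKM in WT tumors and 777 to 3487 FPKM in those labelled PD-1cKO. The 4 dendritic cell markers summed to 5.60 to 8.51 FPKM and 8.81 to 13.6 FPKM after 2 doses, without overlap, and to 6.22 to 9.61 FPKM and 5.99 to 12.5 FPKM in the genetic model. Adipose sums were 0.501 to 13.7 FPKM and 0.658 to 171 FPKM there, and the epithelial markers, low in the cultures, reached 47.5 FPKM in a PD-1 Ab tumor after 2 doses and 57.0 FPKM in a tumor labelled PD-1cKO. The part of each cell type in the change of the 9 genes was not tested.

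Tumors of 1 group also differed among themselves, and the genes that varied together there were listed for the 43 tumors. For each gene, Pearson's r was taken over deviations from the group mean of log2(FPKM + 0.1) after median-of-ratios scaling, against 12108 other protein-coding genes. It is a description without a test, and the tumors share depth and tissue composition. Of the 9 genes, 7 went together, with r from 0.615 to 0.93 for any pair of Itgal, Itgb2, Itga4, Itgae, Itgb7, Selplg and Icam1. Itga1 had r between -0.08 and 0.16 with the other 8, and Vcam1 between 0.12 and 0.51.

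The genes most like each were named by rank. For Itgal they were Ucp2 (r = 0.94), Fmnl1 (0.94) and Tlr9 (0.91), and for Itgb2 Psd4 (0.94), Hk3 (0.94) and Inpp5d (0.93). For Selplg they were Fes (0.97), Laptm5 (0.96) and Inpp5d (0.95), and for Icam1 Il10ra (0.95), Irf8 (0.94) and Selplg itself (0.93). Itga4 went with Tm6sf1 (0.94), Arhgap30 (0.94) and Ptprc (0.93), and Itgb7 with Selplg (0.93), Unc13d (0.93) and Cyth4 (0.91).

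The last 3 genes were nearest to others. Itgae was most like Ciita (0.82), the master regulator of MHC class II genes, Wdfy4 (0.82) and Sorl1 (0.82). Itga1 was most like Lama4 (0.89), Lifr (0.88) and Pdgfra (0.86), of which the first codes for a vessel laminin and the last for a receptor of fibroblasts. Vcam1 had no close companion, and its nearest genes were Col11a1 (0.69), Parp3 (0.66) and Pla2g16 (0.64).

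**Figure D5:**
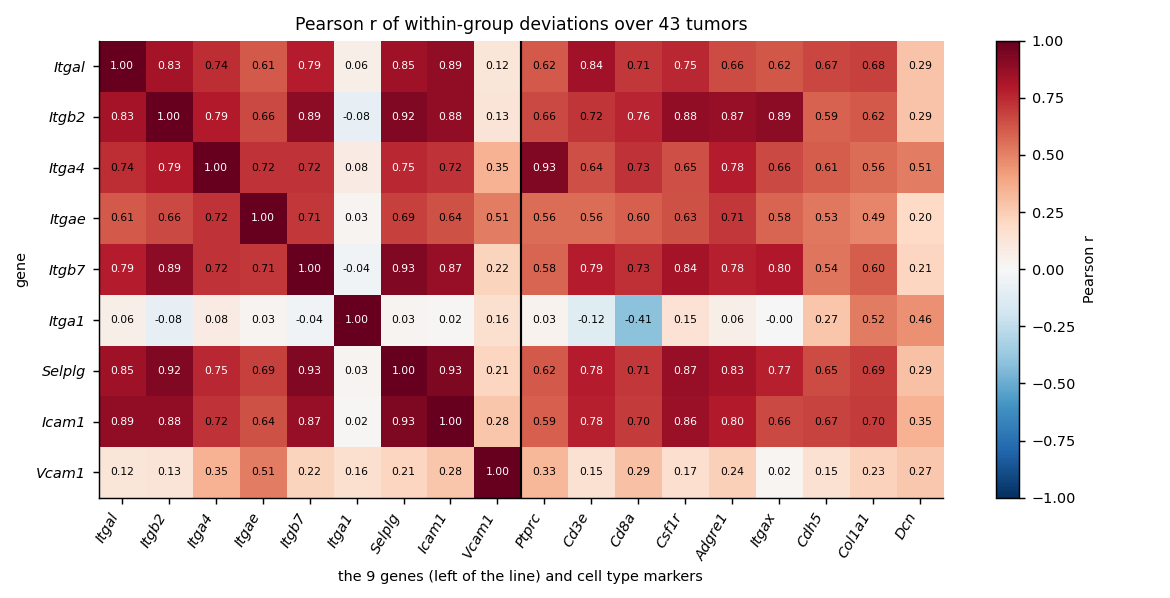
Cells give Pearson's r of within-group deviations over 43 tumors between the 9 genes (rows) and the same 9 genes and 9 cell type markers (columns), from blue (-1) to red (1). Itgb2 reaches 0.89 with Itgax and 0.88 with the macrophage gene Csf1r, Itgal 0.84 with Cd3e and Itga4 0.93 with Ptprc. High values are not particular to leukocyte markers. Icam1 has 0.70 with the fibroblast marker Col1a1, 0.67 with the endothelial marker Cdh5 and 0.35 with the fibroblast marker Dcn. In the rows of Itga1 and Vcam1 no column other than their own exceeds 0.52.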

How the data were processed

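RNA-seq values of all 46 samples were used, 0 columns being without a sample. Per the study's methods, the authors made stranded, ribosome-depleted total RNA libraries, read paired ends of 50 bases, aligned them with the Omicsoft aligner to mouse build B38 and quantified Ensembl gene models. The deposited values are FPKM. As 3743 values lie between 0 and 1e-06, they are estimates, and depth and counts are unknown, so precision is the spread between tumors. Columns were matched to samples by identifier, and symbols came from GENCODE M21 (99.3% of genes).

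Values were taken as log2(FPKM + 0.1). Genes averaging 0.5 FPKM or more in either compared group were fitted with limma 3.58.1 (R 4.3.3, eBayes with a trend), with Benjamini-Hochberg adjustment over all tested genes and calls at an adjusted p under 0.01 and 2-fold. All p-values are two-sided. Nothing states that tumors of a group are independent beyond their labels, so p-values measure the spread between these samples. Fits were tested on simulated data. The 9 genes, the wider list and the markers were chosen with earlier results of these data known. Named genes were all 9, Itgb1 and the 3 most similar genes per member. Of the wider list, up to 5 genes called higher, by fold change, and up to 5 called lower were named in each model. Groups follow the labels. Nothing states that tumors with the same number are paired, and same-numbered tumors did not deviate together. Figures were drawn with matplotlib 3.10.9 in Python 3.11.15 (numpy 2.4.6, pandas 2.3.3).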

Additional observations from a re-analysis of the deposited data

Results flagged for a closer look

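Of 54 sets of values (9 genes in the 6 groups of 5 or 10 tumors), 1 held a tumor far from the others by Dixon's criterion, and chance flags about 1 set in 20. Vcam1 was at 32.5 FPKM in replicate 1 of the isotype control group after 1 dose, while the other 4 tumors of that group lay between 82.5 and 89.9 FPKM. This is the library with 54.6% mitochondrial FPKM, and the part of that share in the low value was not tested. Without sample weights, 0 of the 9 genes had a difference between models or between doses at an adjusted p under 0.05 in limma (3 and 1 at an unadjusted p under 0.05), while with array weights 4 and 5 genes passed both limits. The share of all genes that passed with array weights is not given here.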

How the results depend on the processing

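Counts of the 9 genes were recomputed with another pseudocount (1 FPKM), other filters, 3 scalings, all groups in 1 fit, no variance trend, weighted samples (array weights), a block for the replicate number and, for 2 comparisons, the run of identifiers as a covariate. Leaving out 1 tumor at a time gave 0 after 1 dose, 5 to 7 after 2 doses (7 with all tumors), 4 to 6 in the genetic model (5), 7 to 8 against cultures (8), and 0 for baseline and both differences.

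With the replicate block, 4 genes were called after 2 doses. The same-numbered tumors do not deviate together there (r from -0.21 to 0.04 over 5 pairs), so the numbers do not pair them. In the genetic model array weights left 3 genes, Selplg (0.98) and Icam1 (0.85) falling under 2-fold, and the run covariate left 0. Array weights raised the difference between models from 0 to 4 and that between doses from 0 to 5. Shares of all genes called in these alternative fits are not given here, so the counts have no background beside them.

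Relative to Ptprc, 1 gene was called after 2 doses (1 to 2 with 1 tumor left out, the 2 without isotype replicate 3 or PD-1 Ab replicate 4; 0 with the replicate block or without moderation) and 1 in the genetic model (0 to 1, lost without PD-1cKO replicates 5 or 7 or WT replicates 4, 6, 7, 8 or 9, and 0 with the block). Relative to Cd3e, 1 was called after 1 dose (0 with pseudocount 1, 2 with the replicate block, 0 without moderation, and 0 to 3 with 1 tumor left out, isotype replicates 1, 2 and 5 and PD-1 Ab replicates 2, 3, 4 and 5 giving 0) and 3 in the genetic model (3 to 5, the 5 without WT replicate 3). The fits without moderation were added after the data were seen.

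Signs turned only for changes that were not called. After 1 dose, Itga1 was -0.10 with the run covariate and -0.0044 to 0.79 with 1 tumor left out. Vcam1 in the genetic model was 0.20 under median-of-ratios scaling, 0.076 under upper-quartile scaling, 0.043 when scaled to protein-coding genes and 0.11 with the run covariate. For baseline against isotype control tumors, array weights gave 0.14 for Itgal and 0.19 for Itgb7, and the block 0.063 for Vcam1. Leaving out 1 tumor gave -0.53 to 0.30 for Itgal, -0.87 to 0.17 for Itgb2, -0.65 to 0.20 for Itga4, -0.82 to 0.26 for Itgb7, -0.69 to 0.073 for Icam1 and -0.13 to 0.040 for Vcam1. In the difference between models, Itga1 was -0.028 and -0.10 under median-of-ratios and upper-quartile scaling and -0.064 to 0.38 with 1 tumor left out. In the difference between doses, Vcam1 was 0.15, 0.027 and 0.13 under the 3 scalings, 0.21 with array weights and -0.25 to 0.12 with 1 tumor left out. Relative to Ptprc after 2 doses, Itgae was -0.52 with pseudocount 1, and leaving out 1 tumor gave -0.25 to 0.25 for Itgal, -0.087 to 0.40 for Itgb2, -0.31 to 0.12 for Itgae, -0.25 to 0.33 for Selplg and -0.067 to 0.51 for Icam1. The causes were not tested. Depth is unknown, so detection limits cannot be given.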
